A study of Mus musculus with 2 samples.

Results

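Grb10, an adaptor protein that binds the insulin receptor, was described together with the genes beside it on chromosome 11, its paralogs, and the receptors and substrates it acts on. The 9 genes were Grb10, its neighbours Ddc and Cobl, its paralogs Grb7 and Grb14, the receptor genes Insr and Igf1r, and the substrate genes Irs1 and Irs2. They were taken by name from the platform annotation of the array, out of 18193 genes with a probe set naming that gene alone. They had 20 such probe sets, and no probe set named one of them together with another gene. Grb10 was chosen because its ratio on these arrays was already known to be low, so that ratio is a description and supports nothing by itself.

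Expression was measured on Affymetrix Mouse Genome 430 2.0 arrays in mouse embryonic stem (ES) cells, with 1 array from cells labelled as a Dnmt1 knockout (KO) and 1 from their control. Dnmt1 copies DNA methylation onto the new strand after replication, and the stated purpose was to have a KO control for other experiments on stem cell differentiation. The title alone marks the KO array, since the source name of both samples describes the control. The KO allele, the number of clones, the strain, the passage and the presence of feeder cells are not stated in the labels used. With 1 array per group there was no spread between replicates, no test and no p-value, and every difference below compares these 2 arrays only.

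Grb10 protein binds activated insulin and insulin-like growth factor (IGF) receptors through its SH2 and BPS domains, and it restrains their signalling and growth. It is also phosphorylated by the kinase complex mTORC1. Insulin and IGF receptors act mainly through the substrates IRS1 and IRS2, which recruit PI3K and so activate AKT and mTOR. In mouse, Grb10 is imprinted: most tissues express the maternal copy from an upstream promoter, and neurons express the paternal copy from a downstream promoter in a CpG island that is methylated on the maternal copy. Ddc, which encodes the decarboxylase that makes dopamine and serotonin, shows paternal expression in the developing heart. Cobl encodes an actin nucleator.

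The sequences upstream of Grb10 and of both neighbours are shown because CG dinucleotides are what Dnmt1 methylates. They are the 250 bases before the annotated start, from RefSeq on build GRCm38.p6, read 5′ to 3′ along the gene, with every CG in capitals. RefSeq starts were matched for 7 of the 9 genes, and Grb10, Ddc and Cobl each had more than 1. The outer start of each is shown, and for Grb10 also the inner one. Whether the inner Grb10 window overlaps the methylated CpG island of the downstream promoter was not tested. The Grb10 windows are chr11:12037421-12037670 (outer) and chr11:12027972-12028221 (inner), the Ddc window is chr11:11898145-11898394, and the Cobl window is chr11:12464961-12465210, all on the minus strand.
Grb10, outer start: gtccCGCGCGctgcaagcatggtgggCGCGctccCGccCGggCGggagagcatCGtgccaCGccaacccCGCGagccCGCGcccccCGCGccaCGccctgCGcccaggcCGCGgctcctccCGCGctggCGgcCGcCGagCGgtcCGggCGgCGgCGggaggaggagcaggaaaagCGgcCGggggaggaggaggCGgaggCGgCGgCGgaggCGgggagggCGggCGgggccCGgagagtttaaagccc
Grb10, inner start: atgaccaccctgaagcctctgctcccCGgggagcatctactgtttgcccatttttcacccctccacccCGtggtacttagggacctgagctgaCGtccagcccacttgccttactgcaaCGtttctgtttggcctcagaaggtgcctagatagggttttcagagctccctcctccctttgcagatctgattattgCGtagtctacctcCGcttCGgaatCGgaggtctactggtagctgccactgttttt
Ddc, outer start: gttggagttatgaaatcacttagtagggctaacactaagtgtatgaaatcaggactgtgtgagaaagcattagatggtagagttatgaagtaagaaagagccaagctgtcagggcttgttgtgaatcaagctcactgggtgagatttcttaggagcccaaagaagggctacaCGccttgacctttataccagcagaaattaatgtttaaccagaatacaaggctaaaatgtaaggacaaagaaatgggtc
Cobl, outer start: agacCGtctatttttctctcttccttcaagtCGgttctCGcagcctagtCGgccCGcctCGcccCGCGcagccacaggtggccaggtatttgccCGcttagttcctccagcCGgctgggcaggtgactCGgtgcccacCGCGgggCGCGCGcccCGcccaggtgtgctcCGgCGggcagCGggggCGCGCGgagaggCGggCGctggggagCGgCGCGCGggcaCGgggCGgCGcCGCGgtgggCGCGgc

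The outer Grb10 window held 40 CG dinucleotides (searched as CG, which reads the same on both strands), more than 98.7% of 32851 promoter windows of that length, whose median was 6. The inner Grb10 window, 9449 bases away, held 8, with a GC content of 54% and a ratio of observed to expected CG of 0.45. Ddc had 1 at the outer start and 4 at the inner one, while Cobl had 36 at the outer start and 0 at the inner one. Among the other genes, the windows of Igf1r, Irs2, Irs1 and Grb14 held 42, 34, 28 and 24. At least 1 CG was present in 92.1% of all windows. These counts describe the reference sequence, and no methylation was measured here.

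Signals are given as deposited, on a linear scale. The KO array had the higher signal for most genes. Taking the 10995 genes that passed the floor on both, the median gene had a log2 ratio (KO minus control) of 0.43 as deposited. The floor is each array's own median signal, 60.9 for the control and 74.2 for the KO, and lower signals were raised to it. A ratio with 1 of its signals below the floor is therefore a bound. Where both signals were below it, no ratio was read. Because of the shift of 0.43, ratios are given relative to this median gene, and those called as deposited have no shift taken out. The label was checked on Dnmt1, whose probe sets had control signals of 1949.1, 874.7 and 348.3 and KO signals of 262.1, 56.8 and 20.0, all lower on the array labelled KO. All 12 ES cell markers were above the floor on both arrays, but 3 of these pluripotency genes were higher in the KO by 2-fold or more and 0 lower, both as deposited and relative to the median gene. They were Klf4 (187.1 to 947.8, log2 ratio 1.92), Nanog (592.5 to 1965.5, 1.30) and Esrrb (361.8 to 1098.1, 1.18), while Utf1 (-0.62) and Fgf4 (-0.51) were the lowest. Over the 12226 genes above the floor on at least 1 array, 133 were 2-fold higher or more and 65 lower relative to the median gene. As deposited these counts were 602 and 12. The marker list had a median of -0.08 and a summed signal of 32202 in the control and 42027 in the KO. The part of this difference in the ratios of Grb10 and the other genes was not tested.

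Grb10 was lower on the KO array in all 3 of its probe sets. Its brightest probe set read 1176.5 in the control and 331.8 in the KO, which was 4.76-fold lower relative to the median gene and 3.55-fold lower as deposited. The next had 269.0 and 112.2, 3.22-fold lower relative to the median gene. The dimmest had 167.5 and 63.4, below the KO floor, so it was at least 3.03-fold lower. The log2 ratios of the first 2 averaged -1.97 ± 0.40 (SD between 2 probe sets), and the dimmest was at -1.60 or below. All carry the suffix for probe sets that match several transcripts of 1 gene, so no transcript form can be told from another. Fewer cells expressing the gene and less RNA per cell cannot be told apart in such bulk RNA.

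**Figure D1:**
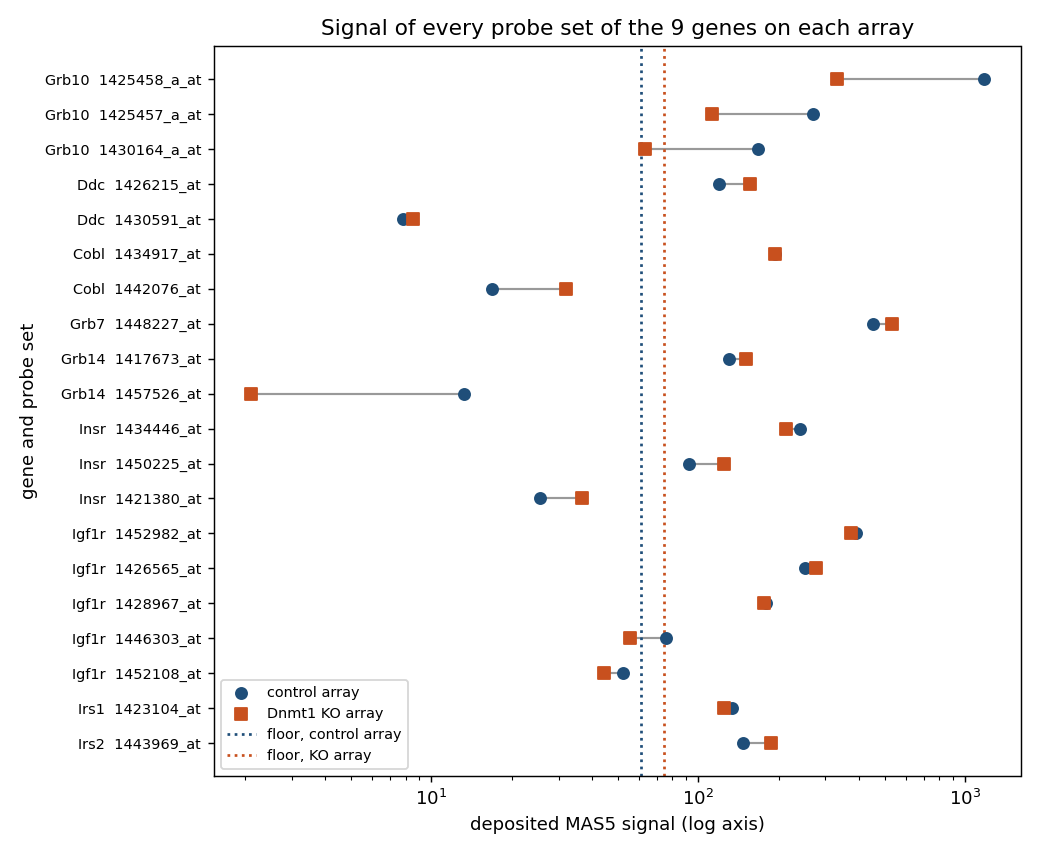
Deposited signal of each of the 20 probe sets of the 9 genes (log axis), with circles for the control array, squares for the KO array and dotted lines at the floor of each array. The 3 Grb10 probe sets have their KO signal well to the left of the control signal, for the brightest at 331.8 against 1176.5, while the brighter Cobl points at 194.5 and 194.3 coincide.

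Of the 10995 genes, only Dnmt1 had a lower ratio than Grb10. Over all genes, 0.532% of the 12226 above the floor on at least 1 array were at least 2-fold lower and 1.09% at least 2-fold higher. Grb10 was among the former, and none of the 9 genes was among the latter. Since Grb10 was picked by this contrast, nothing is read from that count. There were 2172 genes for which 3 or more probe sets passed the floor on at least 1 array, and among them only Dnmt1 and Grb10 had every such probe set at least 2-fold lower. For Dnmt1 these ranged from -3.98 to -2.66 on the log2 scale, where the lowest and the highest are bounds. For Grb10 they ranged from -2.25 to -1.60, the latter a bound. The bounds come from probe sets that passed the floor on the control array alone. Since Grb10 was picked for its low ratio, nothing is read from this either. Next after Grb10, and named after their values were seen, were Ccdc138 at -2.15 and the ribosomal protein gene Rps27 at -1.94.

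The other 8 genes had log2 ratios between -0.59 and -0.03 relative to the median gene, and none was 2-fold different. All 8 lay below the median gene, but only 4 of them, Insr, Irs1, Igf1r and Cobl, were lower on the KO array as deposited, and the other 4 were higher. The direction of these small differences thus depended on the scaling. Each lay above Grb10, whose log2 ratio was lower than theirs by 1.66 (Insr) to 2.22 (Ddc), or 3.16-fold to 4.67-fold. A scaling constant cancels in this difference. For scale, probe sets of the same gene had a pooled SD of 0.24 over 4704 genes. That SD was 0.40 for Grb10, 0.43 for Insr and 0.10 for Igf1r. It covers neither culture nor array differences. Since Grb10 was picked for its low ratio, nothing is read from the size of these gaps.

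**Figure D2:**
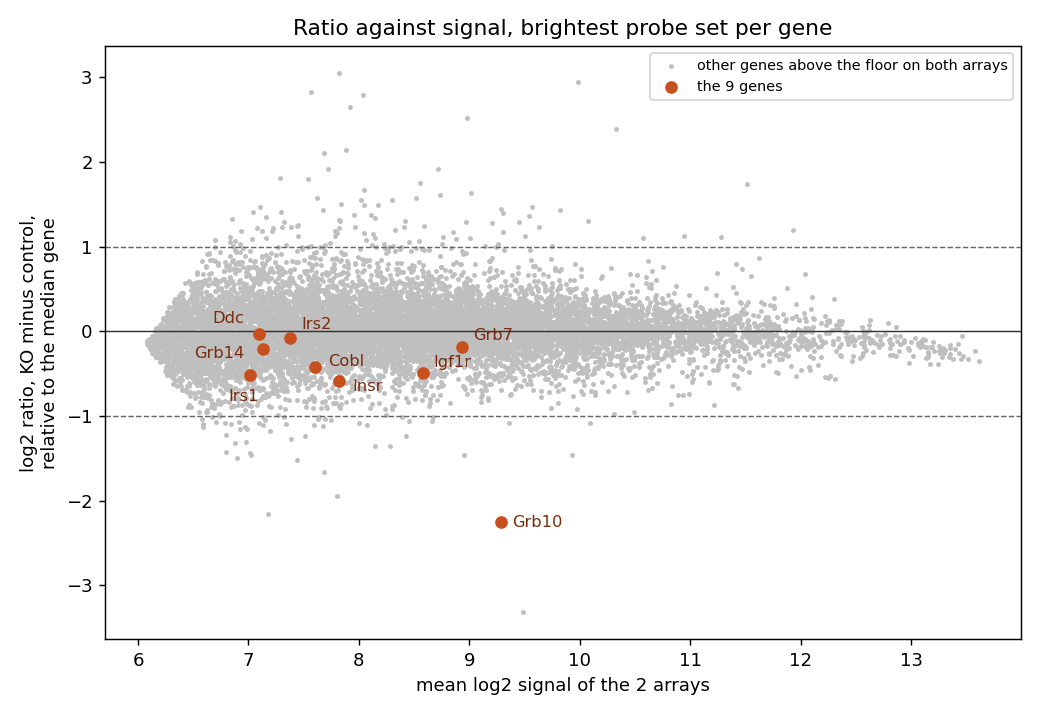
Log2 ratio (KO minus control, relative to the median gene) against the mean log2 signal of both arrays, with 1 point per gene above the floor on both. Grb10 lies at -2.25, apart from the other labelled genes, which lie between -0.59 and -0.03 within the cloud, and dashed lines mark 2-fold.

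The neighbours lay closer to the median gene than Grb10 did. Ddc had signals of 119.2 and 157.0, a log2 ratio of -0.03 relative to the median gene and 0.40 as deposited. A further Ddc probe set was far below the floor on both arrays, at 7.8 and 8.5. Cobl had 194.5 and 194.3, so its signal was nearly equal as deposited (log2 ratio -0.0015) and its ratio was -0.43 relative to the median gene. Its other probe set, at 16.9 and 31.9, was below the floor on both arrays. Ddc and Cobl thus both lay within 2-fold. Genes of related function to each neighbour were listed too. Of 12 listed genes of monoamine synthesis and breakdown, 7 were measured, counting Ddc, and none was 2-fold different relative to the median gene. As deposited 1, Pnmt, was 2-fold higher (at least 1.07), as were 602 of all 12226 measured genes. The adrenaline-making enzyme Pnmt had the highest ratio, at least 0.64 (49.4 to 127.5), followed by the vesicular transporter Slc18a1 at 0.31 or above. Dbh, which makes noradrenaline, had the lowest (-0.21), followed by Maoa, which breaks monoamines down (-0.20). Of 7 listed actin nucleators of the Cobl class, 4 were measured, from Cobl at -0.43 to its paralog Cobll1 at 0.43 (108.7 to 196.6), with Spire2 at -0.14 and Spire1 at 0.19.

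The 10 protein-coding genes nearest to Grb10 in RefSeq order, 5 on each side, were also examined. Of these, 4 were measured. Beyond Ddc lay Fignl1, an AAA ATPase of DNA repair, with signals of 1062.0 and 1234.6 (log2 ratio -0.21), and at the end of the other side Egfr, the epidermal growth factor receptor, with 334.0 and 434.0 (-0.05). Ikzf1, 4930512M02Rik, Spata48, Pom121l12 and Vstm2a were below the floor on both arrays, at no more than 40.8 on either. Sec61g had no probe set naming it alone. All 4 measured neighbours lay within 2-fold. Within 30 places on each side, a range set after the data were seen, 40 of 60 genes were measured and their median log2 ratio was 0.02. Only Upp1, uridine phosphorylase 1, was 2-fold different, and it was higher (401.3 to 1387.9, log2 ratio 1.36). The lowest was Nacad, at -0.81 or below, named like Upp1 after its value was seen. Grb10 was the lowest of 916 genes of chromosome 11, whose median was 0.07. Since Grb10 was picked for its low ratio, nothing is read from that rank or from its distance to the neighbours.

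**Figure D3:**
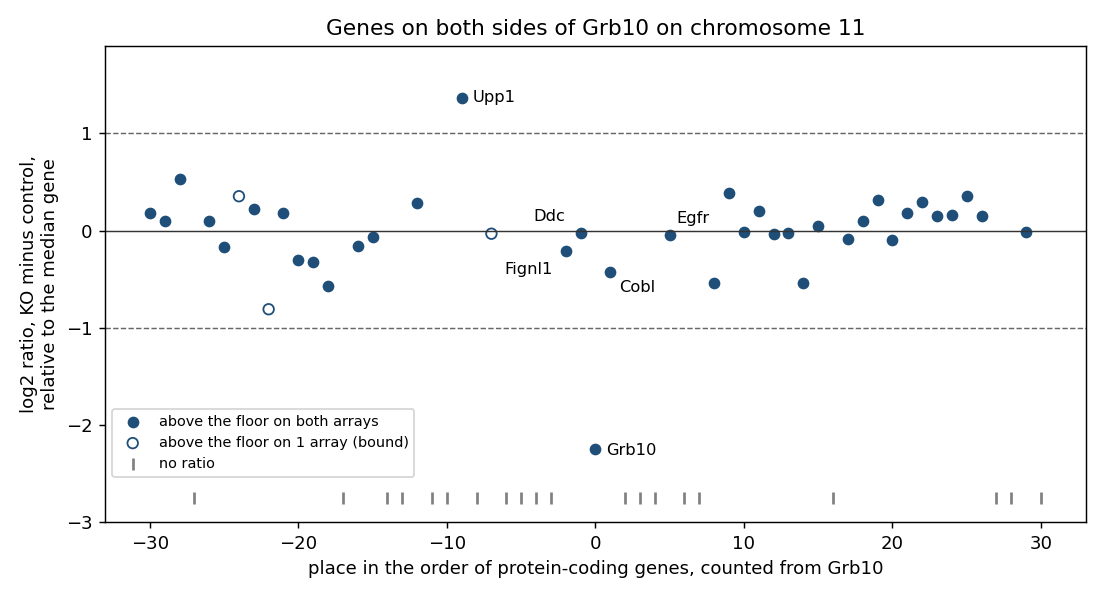
Log2 ratio (KO minus control, relative to the median gene) of protein-coding genes in their order on chromosome 11, counted in places from Grb10. Filled points were above the floor on both arrays, open points on 1 array, and ticks mark genes with no ratio. Grb10 stands alone at -2.25 while Cobl and Ddc beside it lie at -0.43 and -0.03, and Upp1 at 1.36 is the only other gene beyond 2-fold (dashed lines).

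The paralogs Grb7 and Grb14, which share the domain layout of Grb10 and also bind receptor tyrosine kinases, were close to each other in ratio. Grb7, also on chromosome 11, had signals of 450.8 and 530.8, a log2 ratio of -0.19. Grb14, which binds the insulin receptor, had 130.1 and 151.4 in one probe set (-0.21), and 13.3 and 2.1 in another that was below the floor on both arrays. As deposited both were slightly higher on the KO array, at 0.24 and 0.22. The related adaptor Raph1, on the list of the family and its relatives, had -0.28.

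In their brightest probe sets the receptor genes were nearly level as deposited, at -0.17 for Insr and -0.06 for Igf1r. Insr, the insulin receptor, had signals of 240.0 and 213.6 in its brightest probe set, a log2 ratio of -0.59. A second probe set had 92.0 and 125.2, with a ratio of 0.02 relative to the median gene and 0.44 as deposited. The probe sets thus disagreed (-0.29 ± 0.43 relative to the median gene, SD between 2 probe sets). The dimmest was below the floor on both arrays, at 25.6 and 36.6. Igf1r, the IGF1 receptor, had 5 probe sets. The 3 that passed the floor on each array had signals of 390.0 and 373.3, of 251.5 and 275.3 and of 180.2 and 175.7, with a mean log2 ratio of -0.42 ± 0.10 (SD between 3 probe sets). Another had 75.5 in the control and 55.4, below the floor, in the KO, and the last was below the floor on both, at 52.4 and 44.2. The Igf1r probe sets were alike, and those of Insr were not.

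The substrate genes had 1 probe set each. Irs1 had signals of 133.7 and 125.0, a log2 ratio of -0.52, and Irs2 had 147.6 and 187.2, a ratio of -0.08. The ratio of Irs2 was thus above that of Irs1 by 0.44. As deposited the 2 substrates had opposite signs, -0.10 for Irs1 and 0.34 for Irs2. All of these signals were within 2.52 times the floor of their array.

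Insr and Irs2 lie on chromosome 8, where 601 genes passed the floor on both arrays with a median log2 ratio of -0.37, with 90.3% of them below the median gene. Within chromosome 8, Insr lay at the 19.3 percentile, 0.22 below the chromosome's median. Irs2 lay at the 85.2 percentile, 0.29 above it. Insr entered the upper part of the chromosome, at the 65.1 percentile, when the mean over its probe sets was taken in place of the brightest one. The middle 90% of chromosome 8 genes ran from -0.85 to 0.15, so both receptor and substrate lay inside the range of the chromosome. On their own chromosomes Irs1 was at the 4.64 percentile (chromosome 1), Igf1r at the 5.40 (chromosome 7), Cobl at the 5.24 (chromosome 11) and Grb14 at the 19.3 (chromosome 2). As deposited the median of chromosome 8 was 0.06, so its genes were lower relative to those of other chromosomes only. The cause of this difference between chromosomes was not tested.

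**Figure D4:**
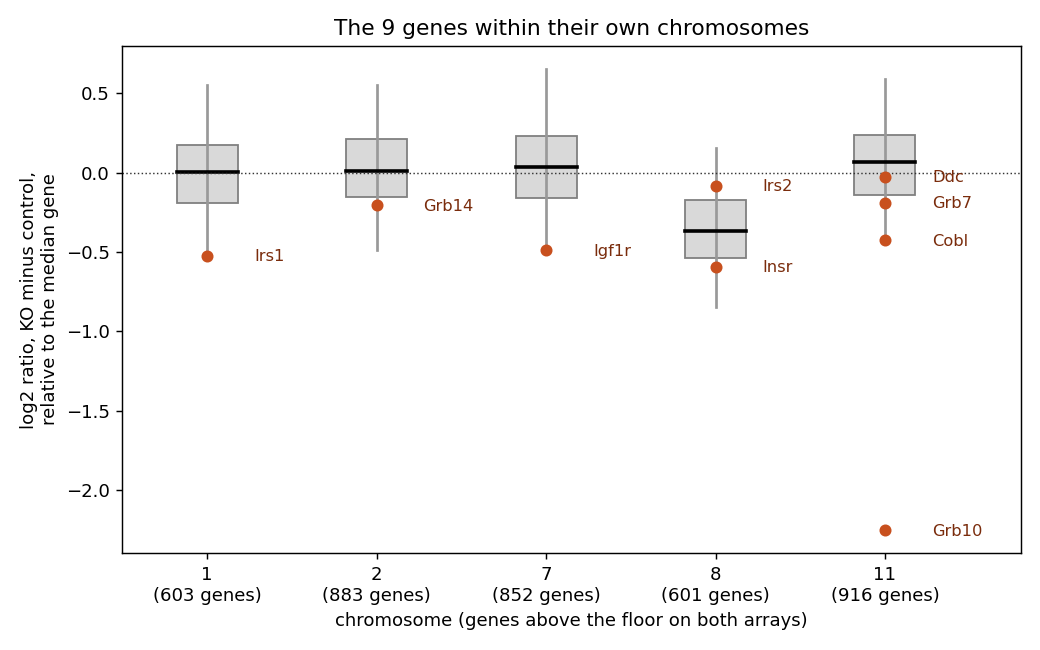
Log2 ratio (KO minus control, relative to the median gene) of the 9 genes (points) over the genes of their own chromosomes. Boxes span the middle 50% of genes, lines the middle 90% and thick bars mark the median. Insr at -0.59 and Irs2 at -0.08 lie on either side of the chromosome 8 median of -0.37, and Grb10 lies far below the range of chromosome 11.

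The rest of the pathway was taken from lists of ligands, receptors, binding proteins, adaptors and downstream kinases. Outside the 9 genes, 86 listed genes were measured, of which 45 lay above and 41 below the median gene. Their median log2 ratio was 0.01, against -0.0049 over all 12226 measured genes. Among them 1 was at least 2-fold lower and 0 at least 2-fold higher, against 0.532% and 1.09% over all measured genes. The lower gene was Igfbp5, a secreted protein that binds IGFs, with signals of 190.3 and 112.7 (2.27-fold lower). Its relatives Igfbp2, at 1535.2 and 2312.1, and Igfbp4, at 439.7 and 672.1, had ratios of 0.17 and 0.19, and Igfbp7 had -0.21. As deposited 3 of the 86 were at least 2-fold higher, with 0 lower, against 602 higher and 12 lower of all 12226 measured genes. Those 3 were the kinase Akt1, the lipid phosphatase Inpp5d and the mTORC1 inhibitor Akt1s1.

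Of the ligands, Igf2 was the only one measured of 3 with a probe set. This growth factor, itself imprinted, had signals of 265.2 and 217.4, a log2 ratio of -0.71. Igf2r, which clears IGF2, had 622.6 and 966.3 (0.21), the only measured receptor above the median gene.

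Among 16 measured substrates and adaptors, counting Irs1 and Irs2, none was 2-fold different and the median was -0.08. Of them 11 lay below the median gene, as did 6205 of all 12226 measured genes. Those below included Irs1 and the chromosome 8 genes Irs2, Dok4 and Gab1. Without its chromosome 8 genes the list had a median of -0.05. The adaptor Grb2, which links receptors to RAS, had 600.9 and 1123.4 (0.48, or 0.43 ± 0.06, SD between 2 probe sets). Irs4 had 64.5 and 127.2 (0.55), but its 2 probe sets averaged 0.05 ± 0.71 (SD). Dok4, a docking protein, was the lowest at -0.54.

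Partners of GRB10 lay near the median gene. All 6 measured had log2 ratios between -0.13 and 0.28. Nedd4, the ubiquitin ligase that binds GRB10, had signals of 2989.8 and 3679.2 (-0.13, or -0.18 ± 0.06, SD between 3 probe sets), and Gigyf1 and Gigyf2, named for their interaction with GRB10, had 0.15 and 0.28. Rptor, a subunit of mTORC1, had -0.07.

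Other negative regulators of the receptor also stayed within 2-fold. Of 9 measured, Socs2, a suppressor of cytokine and growth hormone signalling, was the lowest, with 1008.2 and 842.4 (-0.68, or -0.78 ± 0.12, SD between 4 probe sets). The receptor phosphatase Ptprf had -0.31. Socs1 was at 0.29 or above, and the AKT-binding pseudokinase Trib3 had 0.32, or 0.09 ± 0.33 (SD) over 2 probe sets. Their median was 0.01.

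Downstream of the receptor, the 12 measured genes of the PI3K and AKT arm had a median of 0.09. Inpp5d, the phosphatase SHIP1, had the highest ratio (154.0 to 368.4, log2 ratio 0.83), followed by Akt1 (266.6 to 533.3, 0.57). Pik3r2, a regulatory subunit of PI3K, had the lowest (283.2 to 236.7, -0.68), followed by Inppl1 at -0.32. The 15 measured genes of the mTOR arm had a median of 0.0042. Akt1s1 had the highest ratio there (270.1 to 674.5, 0.90), and the mTORC1 inhibitor Ddit4 followed (696.8 to 1326.5, 0.50). The translation repressor Eif4ebp1 (-0.32) and the kinase gene Rps6kb2 (-0.14) were the lowest. The 5 measured genes of the RAS and MAPK arm ran from Nras at -0.24 to Map2k2 at 0.14, with Braf at 0.12 and Map2k1 at 0.06.

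Among 11 measured FOXO, GSK3, glycogen and glucose uptake genes, the transcription factors Foxo1 and Foxo3 had 0.17 and 0.06, and Gsk3b had -0.21. Glycogen synthase Gys1 was the lowest at -0.51, but its 2 probe sets averaged 0.07 ± 0.83 (SD). The 8 measured FOXO target genes ran from Gadd45a (-0.29) and Bcl2l11 (-0.26) to Trim63 (at least 0.20) and Ccng2 (0.35). None of either list was 2-fold different, and their medians were -0.0023 and -0.04.

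Of the 86 genes, 4 lay on chromosome 8, and all 4 lay below the median gene. They are Dok4, the adaptor Gab1, Pik3r2 and Eif4ebp1, named together after their values were seen. Gab1 had signals of 3026.7 and 2910.4 (-0.48). Relative to the chromosome 8 median, Dok4 had -0.17, Gab1 -0.11, Pik3r2 -0.31 and Eif4ebp1 0.05. The 82 genes on other chromosomes had a median of 0.04, against 0.0092 for all measured genes outside chromosome 8.

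**Figure D5:**
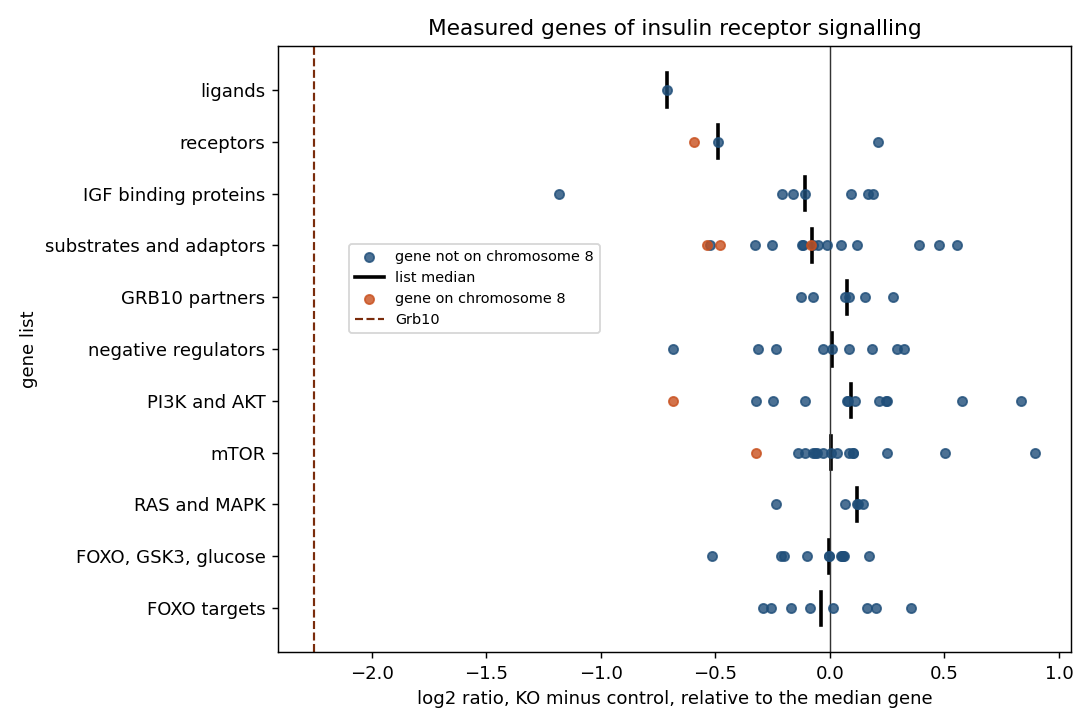
Log2 ratio (KO minus control, relative to the median gene) of each measured gene in 11 lists of insulin receptor signalling, with thick bars at list medians, orange points for genes on chromosome 8 and a dashed line at Grb10. A gene above the floor on 1 array alone is drawn at its bound, and genes in several lists appear in each. Igfbp5 at -1.18 is the only listed gene beyond 2-fold, and no listed gene comes near Grb10 at -2.25.

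The 5 genes nearest to Grb10 by distance between pairs of log2 signals (control, KO), over 2 arrays, were the actin-binding gene Tagln (distance 0.74), Dnmt1 (0.80), the potassium channel gene Kcnk1 (0.84), the centriolar satellite gene Pcm1 (1.03) and the adhesion receptor gene Adgrl2 (1.03). Tagln had signals of 707.9 and 345.9 and was 2.75-fold lower. This likeness is one of array signals and not of transcript amounts. Kcnk1 and Pcm1 lie on chromosome 8.

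A list of other imprinted genes, most but not all of them maternally expressed, had 17 measured genes. Of these, 1 was at least 2-fold lower and 0 at least 2-fold higher relative to the median gene. The shares over all measured genes were 0.532% and 1.09%. As deposited 1 of the 17 was lower and 2 higher, against 12 lower and 602 higher of all 12226 measured genes. The 2 higher were Ascl2 (1.13) and Rian (1.07). The median was 0.0097. The lower gene was the cell cycle inhibitor Cdkn1c (1397.3 to 678.4, log2 ratio -1.47). Ppp1r9a had -0.99, while Rian and Ascl2 had 0.65 and 0.70 relative to the median gene. Calcr, named after its value was seen, was at -0.98 or below (108.9 to 58.4, below the KO floor). Relative to the median gene, the count of 2-fold lower genes in this list is thus a minimum. Of the 17, 9 lay above and 8 below the median gene.

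Markers of other cell types were set beside these values. Of 16 fibroblast markers, which feeder cells would carry, 8 were above the floor on both arrays and 7 on neither, and their summed signal was 5565 in the control and 7136 in the KO. Relative to the median gene that sum had a log2 ratio of -0.07. Tagln (-1.46) and the collagen gene Col1a1 (94.3 to 80.2, -0.66) were the lowest, and Col5a1 (0.37) and Vim (0.54) the highest. Of 13 endoderm markers, 7 were above the floor on both arrays and the sums were 2913 and 4683 (0.26). Of the 10 measured, 7 lay above the median gene, as did 6020 of all 12226 measured genes. Sparc (1030.7 to 1904.0, 0.46) and Sox17 (at least 0.32) were the highest. Gata4 and Gata6, the lowest of the list, had control signals of 80.3 and 71.5, just above the floor, and KO signals of 70.6 and 63.4, below it. Of 7 mesoderm markers, 4 were above the floor on both arrays and the sums were 722 and 876 (-0.15), from Mixl1 (-0.42) and Eomes (-0.27) to Kdr (0.16) and Hand1 (0.28). The 5 neural markers above the floor, of 9, all lay below the median gene, with a median of -0.49 and summed signals over the 9 of 1710 and 1691. They were Pax6 (-0.52), Nes (-0.50), Tubb3 (-0.49), Elavl3 (-0.38) and Map2 (-0.33). Tubb3 lies on chromosome 8, and without it the median of the list was -0.44. The part of these cells in the Grb10 ratio was not tested.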

How the data were processed

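Total RNA of 2 mouse ES cell samples, grouped by title, was measured on 1 array each. The deposited values are linear signal intensities from MAS5, per the submitters' processing notes. Its scaling and target intensity are not stated there, and no detection calls were used. Precision is limited by the number of arrays.

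Of 45101 probe sets, 64 controls were left out, 34958 had 1 gene symbol, 932 had several and 9211 had none. Symbols were updated through gene identifiers to RefSeq GRCm38.p6 (34741 of 34945 matched). Signals below an array's median were raised to it, log2 was taken, the brightest probe set stood for a gene, and ratios were centred on the median gene (python 3.11.15, pandas 2.3.3, statsmodels 0.14.6 for lowess). A gene above the floor on at least 1 array is called measured. The count rule was 2-fold. The fold counts were tested on simulated data with known changes, made from the control array with noise at the SD between probe sets. That noise covers neither culture nor array differences, so the counts of the real arrays were not checked by it.

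The genes and lists were chosen with earlier results of these data known. Named were the 9 genes, the 5 protein-coding genes on each side of Grb10, the 5 nearest by signal, and per list the 2 highest, the 2 lowest and all 2-fold different genes. Protein identities of the paralogs were planned and are not reported here.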

Additional observations from a re-analysis of the deposited data

How the results depend on the processing

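No sign reversed among the values past 2-fold. The Grb10 log2 ratio was -2.25 in the main setting, -1.83 as deposited, -1.83 with the mean over probe sets and, with each other probe set in its place (chosen after seeing the data), -1.69 and -1.60. Grb10 stayed the only one of the 9 genes at least 2-fold lower, except that at 1.5-fold 2 were, with Insr. Its difference from the other genes ran from -2.29 to -1.32. With the mean over probe sets it was -1.82 (Ddc), -1.42 (Cobl), -1.66 (Grb7), -1.64 (Grb14), -1.32 (Irs1) and -1.76 (Irs2), and with the floor at the 75th percentile -2.00 (Insr). At that floor Ddc, Cobl, Grb14, Irs1 and Irs2 had no ratio. Counts over all genes, 133 higher and 65 lower in the main setting, were 602 and 12 as deposited, 361 and 388 with the floor at the 25th percentile, 48 and 12 at the 75th, 929 and 1118 with no floor, 579 and 519 at 1.5-fold and 32 and 6 at 3-fold. The Grb10 percentile among all genes, 0.0182 in the main setting and under quantile normalization, was 0.0275 (25th percentile floor), 0.0158 (75th), 1.23 (no floor) and 0.0362 (mean over probe sets). Within chromosome 11 it was 0.0847, 0.184, 1.18 and 0.109 in that order, and Insr within chromosome 8 moved from 19.3 to 65.1 with the mean over probe sets. Leaving fewer genes above the floor, or more near 0, is built into the floor settings, and the cause of the other changes was not tested. No paired analysis was possible because the labels give no replicate numbers and each group has 1 array. Without detection calls, signals near the floor cannot be called present. This limits Ddc, Grb14, Irs1, Irs2 and the dimmer probe sets of Grb10, Insr and Igf1r. The second Grb10 probe set had a KO signal 1.51 times the floor.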
